A study of Mus musculus with 12 samples.

Results

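Gjb2, Gja1 and Gjc1 are 3 connexin genes of the 20844 genes that both deposited tables of mouse embryonic fibroblast RNA list, and of the 23186 that either lists. They were picked by name because the read level of Gjb2 was among the lowest relative to control in both comparisons of the study, so the values of the members in those comparisons are given as a description without a test. Embryonic fibroblasts, taken at embryonic day 13.5 to 14.5, carried either the LSL-Nrf2D29H allele or the CA-Keap1R554Q allele on both chromosomes. They received adenovirus at a multiplicity of infection of 500, and RNA was collected 4 days later. The D29H group is LSL-Nrf2D29H with Cre virus, in which the mutant NRF2 is expressed, and its control is the same genotype with empty virus, which the labels call an Nrf2 knockout. The R554Q group is CA-Keap1R554Q with Cre virus, in which KEAP1 is mutant, and its control is the same genotype with empty virus, in which KEAP1 works as wild type. Each of the 4 groups has 3 libraries. Every group carries an engineered allele and adenovirus, and no wild-type group with Cre virus was analysed here, so an effect of Cre and an effect of the allele cannot be told apart. The labels do not say whether the libraries of a group came from separate embryos or cultures, so p-values measure only the spread between these libraries.

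Connexins are membrane proteins that assemble in sixes into hemichannels, and the hemichannels of neighbouring cells dock to form gap junctions, which pass ions and small metabolites from cell to cell. Gja1 encodes Cx43, the main connexin of fibroblasts, heart muscle and many other tissues. Gjb2 encodes Cx26, known from liver, epidermis and the supporting cells of the inner ear, where its loss causes deafness. Gjc1 encodes Cx45, a connexin of low-conductance channels in the embryonic heart and in smooth muscle. NRF2 is a transcription factor that switches on antioxidant genes, and KEAP1 holds it down by sending it for degradation.

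The start regions of Gjb2 and Gja1 are shown because both genes were lower in D29H than in its control while their 250 bases before the annotated start differ in base composition. RefSeq (GRCm38.p6) gave a window for 2 of the 3 members, Gjb2 at chr14:57104703-57104952 on the minus strand and Gja1 at chr10:56377050-56377299 on the plus strand. Capitals mark the GC box GGGCGG, searched on both strands, in the Gjb2 window, and the AP-1 site TGANTCA in the Gja1 window.
Gjb2: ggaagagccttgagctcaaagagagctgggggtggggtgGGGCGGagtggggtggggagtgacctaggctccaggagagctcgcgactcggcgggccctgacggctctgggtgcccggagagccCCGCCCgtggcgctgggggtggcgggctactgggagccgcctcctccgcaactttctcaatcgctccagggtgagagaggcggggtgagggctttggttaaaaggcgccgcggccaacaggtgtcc
Gja1: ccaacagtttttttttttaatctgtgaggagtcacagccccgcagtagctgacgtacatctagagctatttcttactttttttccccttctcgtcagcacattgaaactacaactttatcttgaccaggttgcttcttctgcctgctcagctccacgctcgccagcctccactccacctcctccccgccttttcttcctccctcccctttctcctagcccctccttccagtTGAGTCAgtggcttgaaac
The Gjb2 window held 2 GC boxes, at bases 211 to 206 and 126 to 121 before the start, and the second reads CCGCCC on the strand printed. A GC box was present in 32.7% of the 32851 RefSeq windows of this length. The Gja1 window held none, and held 1 AP-1 site, TGAGTCA at bases 19 to 13 before the start, a motif present in 6.75% of the windows and not in that of Gjb2. The core of the antioxidant response element, TGACNNNGC, was in 10.2% of the windows and in neither of these. GC content was 69.2% in the Gjb2 window and 50% in that of Gja1, against a median of 52.4% over all windows. The Gjb2 window held 18 CpG dinucleotides and the Gja1 window 6, and 6 was also the median. A match is a run of letters and not a shown binding site, and the absence of one says only that these letters are not in the window.

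The libraries held 14963004 to 23818477 counted reads, and the labelled-knockout replicate 3 was the shallowest. Nqo1, a target gene of NRF2 that checks the labels, had a mean of 8.82 CPM in the labelled knockout, 119 in D29H, 33.2 in wild type and 351 in R554Q, with no overlap between any of these groups. Nfe2l2 itself, the gene of NRF2, was read in every labelled-knockout library with 630 to 1084 reads, so the name is kept here as a label. Keap1 had log2 fold changes of 0.12 in D29H and 0.03 in R554Q. All 10 fibroblast markers were detected, with summed levels of 19416 to 25909 CPM, while those of 10 epithelial markers came to 3.73 to 9.97 CPM, 9 of them under a mean of 1 CPM. The number of genes called depended on single libraries: with 1 library left out it was 82 to 2192 in the D29H comparison in place of 682, highest without D29H replicate 1, and 238 to 2872 in the R554Q comparison in place of 872, highest without R554Q replicate 3.

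Gjb2 (ENSMUSG00000046352) lies on the minus strand at chr14:57098600-57104702 with 1 annotated transcript of 2 exons. Its level, in CPM (read counts relative to library size, scaled by TMM factors over all libraries), was 35.4, 31.9 and 35.6 in the labelled-knockout replicates 1 to 3 and 22.6, 19.2 and 17.3 in those of D29H. The highest D29H library thus lay well below the lowest labelled-knockout library. The log2 fold change was -0.80 with a standard error of 0.11, and the D29H mean was 57.4% of the control mean. In the Keap1 libraries Gjb2 was at 13.2, 17.1 and 18.9 CPM in wild type and at 9.02, 7.25 and 11.8 CPM in R554Q. These groups did not overlap either, but R554Q replicate 3 came close to wild-type replicate 1. The log2 fold change was -0.80 with a standard error of 0.16, and the R554Q mean was 57.1% of the wild-type mean. The counts behind these levels were 382 to 825 reads per library in the Nrf2 groups and 160 to 353 in the Keap1 groups. In bulk RNA, fewer cells that express a gene and less RNA per cell cannot be told apart.

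Among coding genes averaging 100 counts or more, Gjb2 had the second lowest log2 fold change of 10392 in the D29H comparison, after Prss35 and just before Ak4. It had the fourth lowest of 10277 in the R554Q comparison, after Spock3 and just before Klra4. The selection named no threshold, so these neighbours only place Gjb2 in the ranking and mark no boundary. Over all genes tested Gjb2 was at place 43 of 14370 and at place 71 of 14128 from the lowest value. In the authors' deposited table the log2 fold changes of Gjb2 were -0.70 and -0.57. The difference between the alleles in the effect of Cre on Gjb2, the D29H change minus the R554Q change, was 0.01 with a standard error of 0.20 on the log2 scale.

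**Figure D1:**
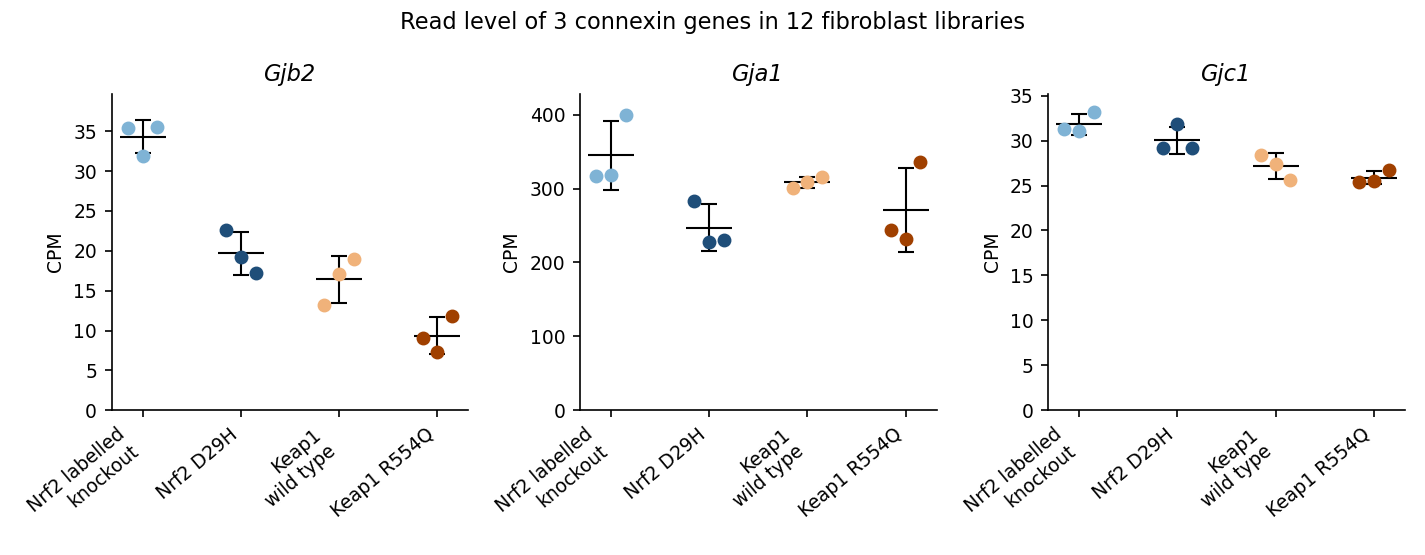
Read level (CPM scaled by TMM factors over 12 libraries, vertical axes from 0) of Gjb2, Gja1 and Gjc1 in the 4 groups; points are the 3 libraries of a group, long lines the mean and bars 1 SD. For Gjb2 the groups step down from a mean of 34.3 CPM in the labelled knockout to 19.7 in D29H, 16.4 in wild type and 9.36 in R554Q, while the Gjc1 groups lie between 25.9 and 31.8 CPM.

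Ordered by mean, Gjb2 was highest in the labelled knockout, then D29H, then wild type, and lowest in R554Q. The neighbouring groups D29H and wild type overlapped, at 17.3 to 22.6 and 13.2 to 18.9 CPM, and the other neighbours in this order did not. The summed level of 7 NRF2 target genes was 333 to 379 CPM in the labelled knockout, 582 to 601 in wild type, 914 to 973 in D29H and 1800 to 1989 in R554Q. Of the 7, 6 were lower in the labelled knockout than in wild type and Slc7a11, the cystine transporter gene, was higher, by 0.85 with a standard error of 0.23 (edgeR, adjusted p = 0.0107).

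Both other contrasts between the groups were not part of the choice of the members and were tested in 1 fit of all 12 libraries over 14794 genes. They use the same libraries as the comparisons above, and allele, culture, deposited table and labelled NRF2 state change together in them, so these cannot be told apart. Gjb2 was higher in the labelled knockout than in wild type, by 1.07 on the log2 scale with a standard error of 0.14 (edgeR quasi-likelihood test, adjusted p = 9.59e-06), with every labelled-knockout library above every wild-type library. It was also higher in D29H than in R554Q, by 1.07 with a standard error of 0.15 (edgeR, adjusted p = 1.99e-05), again in 3 of 3 libraries. Because the 2 Cre effects on Gjb2 were of equal size, the second of these differences carries the first over and is not a separate observation. Of the 3 members Gjb2 alone was called in each contrast. The share of all genes called higher was 9.58% between the controls and 13.1% between the Cre groups. The adjusted p for Gjb2 in edgeR, DESeq2 and limma alternatives ran from 2.06e-10 to 0.000178 between the controls and from 1.56e-09 to 0.000299 between the Cre groups.

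Gja1 (ENSMUSG00000050953, chr10:56377300-56390419, plus strand) was by far the most abundant connexin RNA. It was at 318, 319 and 399 CPM in the labelled knockout and at 284, 228 and 231 CPM in D29H. No D29H library reached the labelled-knockout level, though D29H replicate 1 lay nearest to it. The log2 fold change was -0.48 with a standard error of 0.12, a smaller shift than that of Gjb2 in the same libraries. In the Keap1 groups Gja1 was at 301, 309 and 316 CPM in wild type and at 244, 232 and 337 CPM in R554Q. R554Q replicate 3 was above every wild-type library and the other R554Q libraries were below, so the groups overlapped. The log2 fold change of -0.18 had a standard error of 0.11. Without R554Q replicate 3 it was -0.36, without replicate 2 it was -0.08, and without replicate 1 it was -0.11. The authors' deposited table gives Gja1 as -0.43 and -0.16. The difference between the alleles was -0.29 with a standard error of 0.18.

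Between the controls Gja1 did not pass the threshold, with a log2 difference of 0.16 and a standard error of 0.12 (edgeR, adjusted p = 0.408), although the lowest labelled-knockout library was just above the highest wild-type library. Without labelled-knockout replicate 3 that difference was 0.04. Between D29H and R554Q it was -0.13 with a standard error of 0.12 (edgeR, adjusted p = 0.461), and it turned to 0.06 without R554Q replicate 3 (adjusted p = 0.740).

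Gjc1 (ENSMUSG00000034520, chr11:102799579-102819700, minus strand) had the smallest log2 fold change of the 3 members in both Cre comparisons. Its level was 31.2, 31.0 and 33.2 CPM in the labelled knockout, 29.1, 31.8 and 29.2 CPM in D29H, 28.4, 27.4 and 25.6 CPM in wild type, and 25.4, 25.5 and 26.7 CPM in R554Q. Each Cre group overlapped its control, and the Nrf2 libraries all lay above the Keap1 libraries. The log2 fold change was -0.08 with a standard error of 0.10 in D29H and -0.07 with a standard error of 0.09 in R554Q. Gjc1 was 0.23 higher on the log2 scale in the labelled knockout than in wild type, with a standard error of 0.09 (edgeR, adjusted p = 0.0744). Between D29H and R554Q the difference was 0.22, also with a standard error of 0.09 (edgeR, adjusted p = 0.0705). Neither passed the threshold of 0.05 in this fit, and each passed it with genes of a mean count of at least 50 only, at adjusted p = 0.0465 and 0.0414, and with offsets for GC content and length, at 0.0238 and 0.0334. Upper-quartile scaling also brought the second to 0.0418.

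Read as counts, 2 of the 3 members, Gjb2 and Gja1, were lower in D29H with no overlap between the groups, as were 12.9% of all genes tested. In R554Q this held for 1 of 3, Gjb2, as for 14.2% of the genes. The level of Gjb2 in both comparisons chose the members, so nothing is read from either count. Between the controls all 3 members were higher in the labelled knockout without overlap, against 17.9% of all genes, and between the Cre groups Gjb2 and Gjc1 were higher in D29H without overlap, against 18.3%. The spread within groups differed between the members as well. The pooled within-group SD of log2 CPM was 0.24 for Gjb2, 0.20 for Gja1 and 0.06 for Gjc1.

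**Figure D2:**
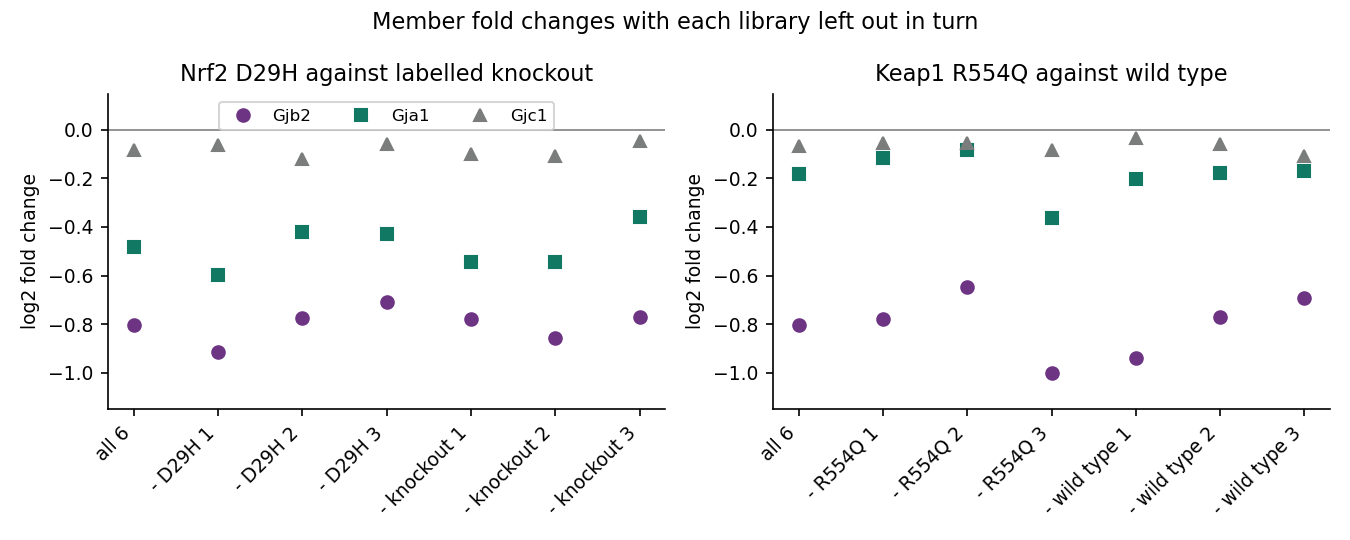
Log2 fold change (vertical axes) of Gjb2, Gja1 and Gjc1 in each comparison with all 6 libraries and with the library named on the horizontal axis left out. Gjb2 stays the lowest of the 3 in every fit, between -0.92 and -0.71 in D29H and between -1.001 and -0.65 in R554Q, whereas Gja1 in R554Q runs from -0.36 to -0.08.

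With each library left out in turn, Gjb2 was lowest at -0.92 without D29H replicate 1 and at -1.001 without R554Q replicate 3. Gja1 in the D29H comparison ran from -0.60 without D29H replicate 1 to -0.36 without labelled-knockout replicate 3. Gjc1 ran from -0.12 to -0.05 in the D29H comparison and from -0.11 to -0.03 in the R554Q comparison.

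Per gene length, in the authors' FPKM (reads relative to gene length and library total), Gja1 was the leading connexin RNA with a mean of 94.2 over the 12 libraries, while Gjc1 was at 8.43 and Gjb2 at 8.32. The place of Gjb2 relative to Gjc1 changed with the group. In the labelled knockout it was at 14.4 ± 1.00 FPKM (SD, n = 3), above every library of Gjc1, at 9.43 ± 0.44. In D29H, at 8.45 ± 1.06 FPKM, it overlapped Gjc1 at 9.11 ± 0.58. In wild type it was at 6.55 ± 1.11 FPKM against 7.65 ± 0.48 for Gjc1, again overlapping. In R554Q it was at 3.86 ± 0.93 FPKM, below every library of Gjc1, at 7.52 ± 0.20.

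**Figure D3:**
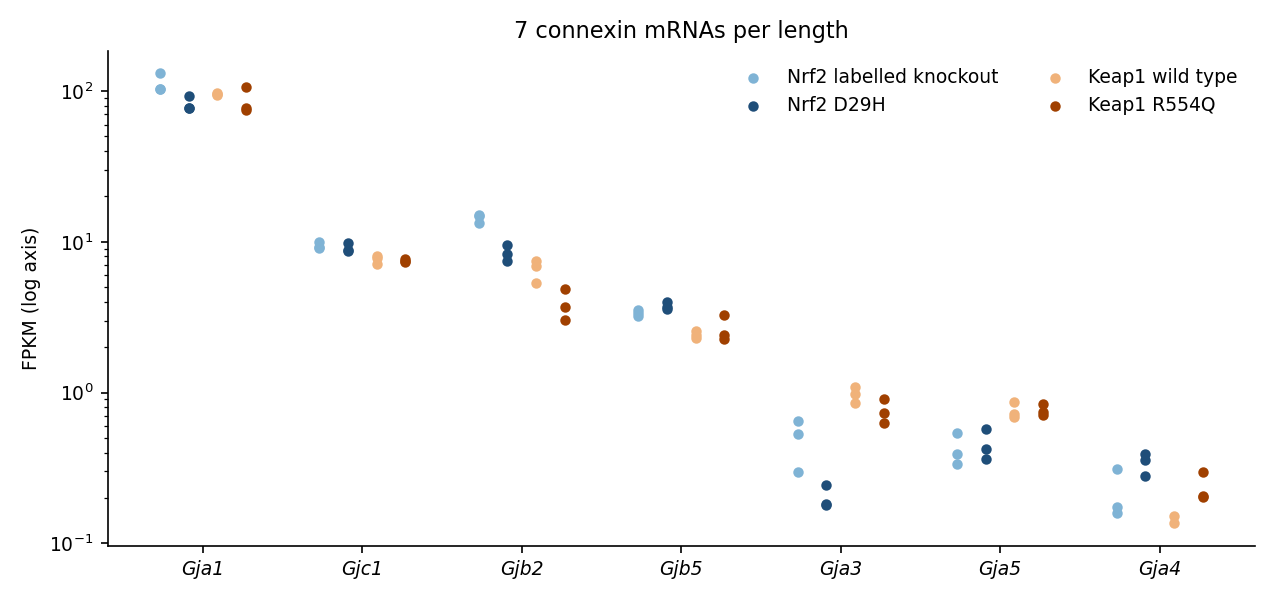
FPKM (log axis) of 7 connexin genes, ordered by their mean from left to right, in the 12 libraries coloured by group; 1 wild-type library with Gja4 listed at 0 cannot be drawn. Gja1 lies above the other genes drawn in every library, and Gjb2 spans a wider range on the log axis than Gja1 or Gjc1, from 15.1 FPKM in the labelled knockout to 3.01 in R554Q.

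Of the summed FPKM of the 17 connexins listed, Gja1 took 66.4% to 75.1% in single libraries. Gjb2 took 9.06% ± 0.81 (SD, n = 3) in the labelled knockout and 6.90% ± 0.40 in D29H, with no overlap. It took 4.99% ± 0.73 in wild type and 3.19% ± 0.33 in R554Q, also without overlap. Set against Gja1 alone, there were 12.9 ± 1.44 FPKM of Gjb2 for every 100 FPKM of Gja1 in the labelled knockout and 10.3 ± 0.60 in D29H. The same ratio was 6.84 ± 1.06 in wild type and 4.44 ± 0.37 in R554Q. Gjb2 was thus the lower relative to Gja1 in both Cre groups, and the ratio in every Nrf2 library exceeded that in every Keap1 library. Gjc1 took 5.92% ± 0.39 of the summed FPKM in the labelled knockout and 7.51% ± 1.03 in D29H, while its own level was 9.43 and 9.11 FPKM. Most of the sum is Gja1, which was lower in D29H.

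The 17 other connexins of the family list were examined next to the members. Gja10, Gjd2 and Gje1 are in neither table, 14 are listed, and 6 passed the filter on low counts in each comparison. None of the 6 was called in D29H, where 4.75% of all genes were called and 3.47% were called higher, and none in R554Q, where 6.17% were called. By edgeR 0 had an unadjusted p under 0.05 in either comparison, and DESeq2 and limma called 0. Their median log2 fold change was 0.11 in D29H and -0.02 in R554Q, against 0.00 over all genes in both. Gjb5, of the same beta group as Gjb2, had log2 fold changes of 0.11 with a standard error of 0.15 in D29H and of 0.09 with a standard error of 0.18 in R554Q. Gjb2 is flanked by the alpha connexin Gja3 at chr14:57035608-57058030 and by Gjb6 at chr14:57123303-57133611.

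**Figure D4:**
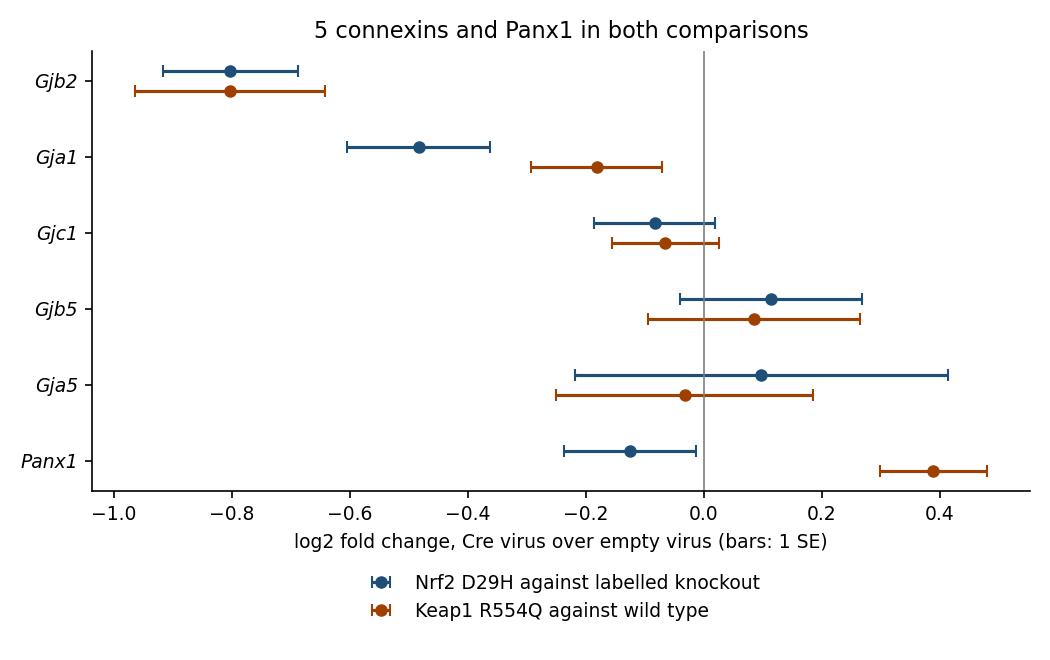
Log2 fold change of Cre virus over empty virus (horizontal axis, bars 1 SE) for 5 connexins tested in both comparisons and for Panx1. Gjb2 is the lowest drawn in both at -0.80, Gja1 is next at -0.48 and -0.18, and Panx1 is at -0.13 in D29H and 0.39 in R554Q.

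The neighbours of Gjb2 in the connexin cluster had few reads. Gja3, a connexin of the lens, had 6, 6 and 8 reads in D29H against 19, 11 and 15 in the labelled knockout and was too low to be tested there. In R554Q it had 23, 31 and 20 reads and in wild type 33, 27 and 33. Gjb6, which pairs with Gjb2 in the inner ear, had 12 reads in all libraries together. Gja3 was lower in the labelled knockout than in wild type, by -1.09 on the log2 scale with a standard error of 0.33 (edgeR, adjusted p = 0.0202), opposite in sign to Gjb2. The call was lost without labelled-knockout replicate 2 (-0.81, adjusted p = 0.136), without wild-type replicate 1 (adjusted p = 0.0593) and without wild-type replicate 3 (adjusted p = 0.0812). It was also lower in D29H than in R554Q, by -1.95 with a standard error of 0.38 (edgeR, adjusted p = 0.00066).

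Between the controls 2 of 7 other connexins tested were called, both lower, against 10.1% of all genes called lower. The second was Gja5, an arterial and atrial connexin, at -0.96 with a standard error of 0.26 (edgeR, adjusted p = 0.0101). That call was lost without labelled-knockout replicate 1 (adjusted p = 0.0595) and without wild-type replicate 3 (adjusted p = 0.0571). Between D29H and R554Q 3 of 7 were called, Gja3 and Gja5 lower and Gjb5 higher, against 26.5% of all genes in either direction. Gja5 was at -0.82 with a standard error of 0.25 (edgeR, adjusted p = 0.0188), and this was lost without D29H replicate 2 (adjusted p = 0.0925) and without R554Q replicate 1 (adjusted p = 0.0742). Gjb5 was at 0.44 with a standard error of 0.15 (edgeR, adjusted p = 0.0379), with edgeR's adjusted p between 0.0600 and 0.153 without D29H replicate 1, 2 or 3 or R554Q replicate 1 or 2. The Gjb5 call was also lost with DESeq2 (adjusted p = 0.0528), with no filter on low counts (0.0503) and with the 6 libraries of the comparison alone (0.0770). Gja3 and Gja5 were themselves low, with means of 0.61 and 0.60 FPKM over the 12 libraries. Gja4, Gja6, Gjb1, Gjc3, Gjd3 and Gjd4 also had a mean under 1 FPKM, and of this last group only Gja4 had enough reads to be tested. Gja4 was tested in every comparison but that of R554Q with wild type, and it was not called.

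Pannexins form large membrane channels that resemble connexin hemichannels and release ATP. Panx1, the member of the family with an adequate level, was at 31.6, 28.3 and 31.3 CPM in R554Q and at 22.9, 23.6 and 23.4 CPM in wild type. All R554Q libraries were above all wild-type libraries. Panx1 was among the 3.77% of genes called higher in R554Q, by 0.39 on the log2 scale with a standard error of 0.09 (edgeR, adjusted p = 0.0183), where Gjb2 was lower. With the replicate number as a block the adjusted p was 0.0505, and without R554Q replicate 1 or wild-type replicate 1, 2 or 3 it was between 0.0656 and 0.0970. In D29H Panx1 was at -0.13 with a standard error of 0.11 (edgeR, adjusted p = 0.522). The difference between the alleles was -0.51 with a standard error of 0.14 and did not pass (edgeR, adjusted p = 0.201). Panx1 was lower in D29H than in R554Q, by -0.39 with a standard error of 0.10 (edgeR, adjusted p = 0.0049). Panx2 and Panx3 had 0 to 18 reads per library and were not tested.

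Connexins are carried to the membrane, anchored and phosphorylated by partner proteins, and 22 such genes were listed. In the D29H comparison 1 of 22 was called, lower, against 1.28% of all genes called lower, and 7 had an unadjusted p under 0.05. In the R554Q comparison 1 of 22 was called, lower, against 2.4%, and 5 had an unadjusted p under 0.05. Both calls were Cav1, the scaffold protein of caveolae, to which Cx43 binds. Cav1 was at 523, 483 and 440 CPM in D29H against 588, 623 and 734 in the labelled knockout, and at 572, 558 and 624 CPM in R554Q against 706, 816 and 735 in wild type. Every Cre library lay below every control library of its own comparison. The log2 fold change was -0.43 with a standard error of 0.12 in D29H (edgeR, adjusted p = 0.0400) and -0.36 with a standard error of 0.09 in R554Q (edgeR, adjusted p = 0.0221). The call was lost without D29H replicate 2 or 3 or labelled-knockout replicate 2 or 3 (adjusted p = 0.101 to 0.288), without R554Q replicate 1 or 2 or wild-type replicate 2 or 3 (adjusted p = 0.0613 to 0.164), and with offsets for GC content and length (0.0507 and 0.0594). Upper-quartile scaling also ended it in D29H (adjusted p = 0.0502). The number of partner genes called was 6 without D29H replicate 1 and 4 without R554Q replicate 3.

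Between the controls 3 of the 22 partner genes were called, against 19.7% of all genes. Nov, a secreted matricellular protein that binds Cx43, was higher in the labelled knockout by 0.56 with a standard error of 0.13 (edgeR, adjusted p = 0.00427). Sgsm3, which also binds Cx43, was higher by 0.34 with a standard error of 0.10 (edgeR, adjusted p = 0.0217), a call that leaving out labelled-knockout replicate 2 or wild-type replicate 1 or 2 ended (adjusted p = 0.0587 to 0.136). Without labelled-knockout replicate 3 the count was 7, and with the offsets for GC content and length 8. Cnst, the connexin sorting protein consortin, was lower by -0.55 with a standard error of 0.09 (edgeR, adjusted p = 9.95e-05). Between D29H and R554Q 11 of 22 were lower, against 13.4% of all genes, and Sgsm3 was higher by 0.28 (edgeR, adjusted p = 0.0418). The Sgsm3 call was lost with DESeq2 (adjusted p = 0.0530), with no filter on low counts (0.0715), with the 6 libraries of the comparison alone (0.0825) and without D29H replicate 2 or 3 or R554Q replicate 1 or 3 (0.0778 to 0.178). In place of these 12 calls, 6 or 7 were made without D29H replicate 2 or 3 or R554Q replicate 1 or 3. Among the lower genes between D29H and R554Q were Ezr, a membrane-cytoskeleton linker, at -0.61 (edgeR, adjusted p = 5.74e-05), the kinase Mapk3 at -0.52 and N-cadherin, Cdh2, at -0.49. The median of the list was -0.12 in D29H, 0.06 in R554Q, -0.10 between the controls and -0.25 between the Cre groups, where the medians of all genes were within 0.02 of 0. None of the 22 was called for a difference between the alleles, where 0.027% of all genes were called, 4 had an unadjusted p under 0.05 in edgeR and DESeq2 and limma called 0.

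Markers of other cell types moved with some of these contrasts. Macrophage markers summed to 134 to 172 CPM in the labelled knockout, 156 to 177 in D29H, 99.4 to 110 in wild type and 71.3 to 83.6 in R554Q, with Adgre1 in neither table. None of the 7 tested was called in D29H against its control, where 4.75% of all genes were called. In R554Q 1, Lyz2, was lower, as were 2.4% of all genes. Between the controls 6 of 7 were higher, against 9.58% of all genes. Between D29H and R554Q 7 of 7 were higher, against 13.1%, and Gjb2 was higher in both contrasts. Of the fibroblast markers 5 of 10 were higher in either contrast, against the same 9.58% and 13.1%, all of them collagens, Pdgfrb or Lum. Vim was lower in D29H than in R554Q, though limma called neither Vim nor Col1a1 there. In R554Q 1 of 10, Pdgfra, was higher by 0.36 (edgeR, adjusted p = 0.0358), opposite in sign to Gjb2, against 3.77% of all genes called higher. None was called in D29H against its control by edgeR, though DESeq2 called Pdgfra and Vim. They were at 0.32 and -0.36 (edgeR, adjusted p = 0.0595 and 0.114). The part of the macrophage and fibroblast markers in the Gjb2 differences was not tested. Of the epithelial markers 9 of 10 had a mean under 1 CPM, and the single epithelial gene called in both Cre comparisons, Cldn4, was higher in them, at 0.115 CPM in the labelled knockout, 0.619 in D29H, 0.704 in wild type and 2.40 in R554Q, though DESeq2 called it in neither. Cldn4 was lower in the labelled knockout than in wild type by -2.59 and in D29H than in R554Q by -1.95 (edgeR, adjusted p = 0.000989 and 0.000119). DESeq2 and limma called Cldn4 in these contrasts too. Endothelial markers summed to 16.3 to 24.4 CPM, muscle markers to 16.1 to 24.4 CPM with Ckm in neither table, and none of their tested genes was called between the controls. The muscle filament gene Des was lower in R554Q than in wild type by -0.45 (edgeR, adjusted p = 0.0326) and higher in D29H than in R554Q by 0.45 (edgeR, adjusted p = 0.00809), the directions of Gjb2. Neural and glial markers summed to 38.7 to 46.9 CPM in the labelled knockout, 37.7 to 46.3 in D29H, 53.1 to 59.5 in wild type and 61.4 to 67.8 in R554Q. Of these Sox10, a factor of neural crest and glia, was lower in the labelled knockout than in wild type by -1.62 (edgeR, adjusted p = 0.00223) and in D29H than in R554Q by -2.13 (edgeR, adjusted p = 0.000148), and the neuronal tubulin Tubb3 by -0.32 and -0.62 (edgeR, adjusted p = 0.0256 and 6.67e-05). Gfap, with 86 reads in the 12 libraries, was higher in D29H than in R554Q by 1.58 (edgeR, adjusted p = 0.0261), though DESeq2 did not call it. The keratin Krt18 had means of 2.62 CPM in the labelled knockout, 2.04 in D29H, 4.99 in wild type and 4.81 in R554Q, and was lower in the same contrasts by -0.92 and -1.23 (edgeR, adjusted p = 0.00136 and 7.35e-05), opposite in sign to Gjb2. The part of these genes in the Gjb2 differences was not tested either.

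The coding genes nearest to Gjb2 that were tested in both Cre comparisons are Zmym2, Zmym5 and Pspc1 on one side and Cryl1, Ift88 and Il17d on the other. Gja3 lies closer, between Zmym2 and Gjb2, and was tested in R554Q but not in D29H, with a log2 fold change of -0.39 and a standard error of 0.28 in R554Q (edgeR, adjusted p = 0.421). Cryl1, a crystallin-like dehydrogenase gene 170 kb from Gjb2, was at 9.62, 9.25 and 7.64 CPM in D29H and at 12.4, 11.9 and 13.1 CPM in the labelled knockout. The groups did not overlap, and Cryl1 fell by 0.50 on the log2 scale with a standard error of 0.13 (edgeR, adjusted p = 0.0323). Without D29H replicate 2 or 3 or labelled-knockout replicate 2 or 3 the adjusted p was 0.0590 to 0.238. In R554Q it was at 8.17, 5.76 and 6.97 CPM against 8.29, 9.32 and 9.16 in wild type, a log2 fold change of -0.35 with a standard error of 0.15 that did not pass (edgeR, adjusted p = 0.143). The labelled knockout was above wild type by 0.48 (edgeR, adjusted p = 0.0118), without wild-type replicate 1 by 0.44 (adjusted p = 0.0617). The Pearson r of log2 CPM between Gjb2 and Cryl1 was 0.93 over the 12 libraries and 0.63 for deviations from the group means, a description over libraries that share groups and may share cultures. None of the other 5 neighbours tested in both was called in either Cre comparison. In D29H Il17d was at -0.46 (edgeR, adjusted p = 0.0640) and Pspc1 at -0.31 (edgeR, adjusted p = 0.0720). Pspc1 was higher in the labelled knockout than in wild type by 0.28 (edgeR, adjusted p = 0.0349), as Gjb2 and Cryl1 were, a call lost without any 1 of the labelled-knockout replicates or wild-type replicate 1 or 2 (adjusted p = 0.0690 to 0.174).

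**Figure D5:**
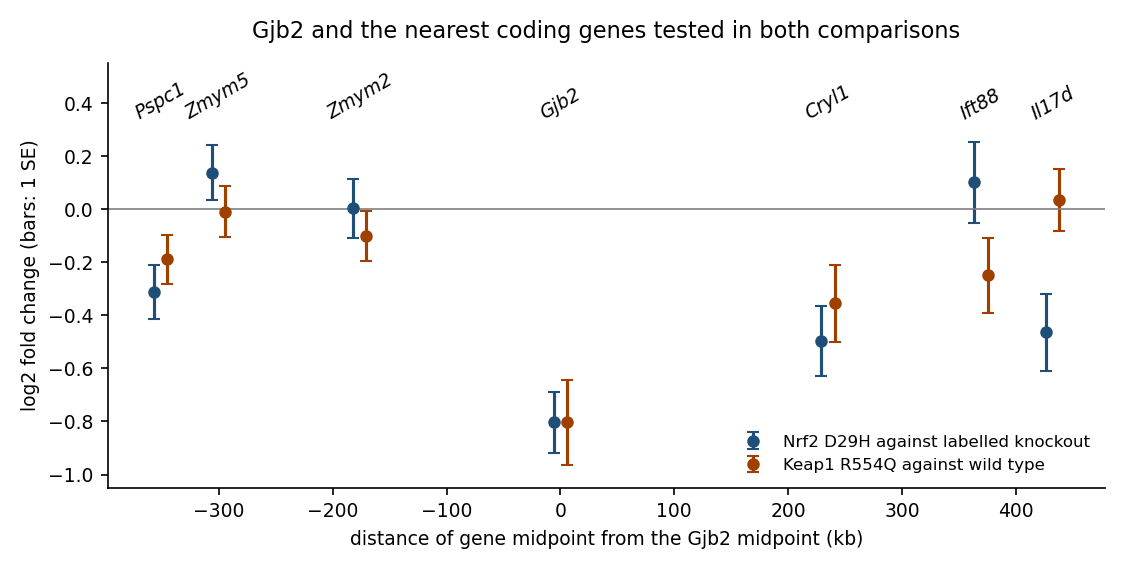
Log2 fold change (vertical axis, bars 1 SE) of Gjb2 and of the 3 nearest coding genes on each side that were tested in both comparisons, against the distance of gene midpoints from that of Gjb2 (horizontal axis, kb), in both comparisons. Gjb2 is lowest at -0.80, Cryl1 is at -0.50 in D29H and -0.35 in R554Q, and Zmym2, the nearest of those drawn on the other side, is at 0.00 and -0.10.

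Genes whose levels followed each member most closely were ranked by the Pearson r of log2 CPM over the 12 libraries among 10345 coding genes. For Gjb2 these were Lbr, the lamin B receptor of the nuclear envelope, and Trip13, a checkpoint ATPase, both at 0.98, then Bcat1 at 0.98, Cyth3 at 0.97 and Stard4 at 0.97. Lbr, chosen for its likeness to Gjb2 in these libraries, had means of 72.9 CPM in the labelled knockout, 53.0 in D29H, 47.2 in wild type and 38.6 in R554Q. Its log2 fold changes were -0.46 in D29H and -0.28 in R554Q, given with no test because the choice of the gene fixes their direction. For Gja1 the closest were Fstl1, Gfm1 and Rdx, each at 0.97, and for Gjc1 they were Ska3, Mms22l and Prr11, each at 0.96. Among the members r was 0.83 between Gjb2 and Gjc1, 0.57 between Gjb2 and Gja1 and 0.31 between Gja1 and Gjc1. Within groups the order was another: deviations from the group means gave 0.76 for Gjb2 with Gja1 and -0.09 for Gjb2 with Gjc1. These values describe 12 libraries that share groups and tables and may share cultures.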

How the data were processed

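RNA from mouse embryonic fibroblasts was measured in 12 libraries, 3 in each of 4 groups taken from the sample titles. Read counts per gene and FPKM are as the authors deposited them, per the file headers, in 1 table for the Nrf2 groups and 1 for the Keap1 groups. The deposited tables also hold gene length, a signal per group that the headers name as a mean of normalised counts, and the authors' own log2 fold change with its p-value and adjusted value. Each value printed from these is named as theirs. STAR, DESeq2 and mm10 are named in the submitters' processing notes without their roles. The tool that counted reads, its annotation and its strand setting are not given in the sources used here. The tables list 22114 and 21916 genes, each with 1 read or more, and 0 columns were left unmapped. No gene of GENCODE M21 overlaps a member on either strand.

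Counts were tested in R 4.3.3 with edgeR 4.0.16: filterByExpr, TMM factors and the quasi-likelihood test, on the 6 libraries of a Cre comparison (14370 and 14128 genes) or on all 12 in 1 fit of group means (14794 genes in both tables), which also gave the difference between the alleles. A call is a Benjamini-Hochberg adjusted p under 0.05 over all genes tested, and the standard error is the log2 fold change over the root of its F statistic. The test was tried on simulated data with known changes before use. The members, gene lists and tests were chosen with earlier results of these data known. Named were the members, every other connexin and pannexin with a read, partner genes called in a contrast (up to 4 per direction), the 3 nearest coding genes on each side of a member that were tested in both Cre comparisons, the 3 to 5 genes closest in Pearson r among coding genes averaging 100 counts or more, and Nfe2l2, Keap1 and Nqo1. Some genes that this rule names are not reported here. Macrophage and other markers, and the genes next to Gjb2 in rank, were named after their values were seen.

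No library was a duplicate: pairs within a group gave a chi-square of 4.95 to 25.1 for each degree of freedom. The alternatives were RLE and upper-quartile scaling, no count filter or a mean of at least 50, DESeq2 1.42.0, limma 3.58.1 with trend (prior count 2), the other set of libraries in the fit, a replicate block and leaving out each library. Offsets for GC content and gene length (lowess, span 0.3) were added after earlier results were seen.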

Additional observations from a re-analysis of the deposited data

How the results depend on the processing

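The log2 fold changes of Gjb2 kept their sign under the 15 alternatives in each of the 4 contrasts, and its calls between the controls and between the Cre groups held in all of them. Leaving out each library in turn, Gja1 between D29H and R554Q ran from -0.25 to 0.063, the last without R554Q replicate 3. Gjc1 moved to -0.020 in D29H and to -0.0017 in R554Q with offsets for GC content and length. It passed the threshold between the controls with a mean count of at least 50 (0.24) and with these offsets (0.23), and between the Cre groups with upper-quartile scaling (0.24), a mean count of at least 50 (0.24) and the offsets (0.21). The cause was not tested.

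Counts of called genes depended on single libraries, from 82 to 2192 in D29H and from 238 to 2872 in R554Q with 1 library left out, where fewer samples enter, against 682 and 872 with all. With no filter on low counts 1195 and 1502 were called, and with the offsets 510 in R554Q. Titles give all groups replicate numbers 1 to 3, but deviations of libraries with the same number correlated at -0.174 to 0.032, so the numbers were not taken as pairs. The sample descriptions number the labelled-knockout libraries otherwise than the titles, and a block by those codes was not run. With the replicate block 484 genes were called in R554Q, and of the calls among connexins, pannexins, partner genes and neighbours, the genes for which the block was run one by one, that of Panx1 in R554Q and those of Cav1 (adjusted p = 0.0557) and Zmym5 (adjusted p = 0.0515) between the Cre groups were lost. Marker genes of other cell types were not run under the alternatives one by one, beyond DESeq2 and limma, whose calls are given for only some of them. The difference between the alleles called 4 genes, 2 with the replicate block, 32 with no filter, 53 with DESeq2, 1 each with upper-quartile scaling, limma or a mean count of at least 50, and 0 to 26 with 1 library left out. Depth limits Gja3 and Gjb6, the connexins that flank Gjb2, with under 34 reads in any library. Some other connexins had fewer reads still, down to 2 in all libraries together for Gjd4. Intervals and tests cover the spread between these libraries only.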

Other observations

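Among the 3 nearest coding genes tested on each side of Gja1 and Gjc1, some of them far away, several differed. Man1a, a Golgi mannosidase gene 2301.5 kb from Gja1 on the side of lower coordinates, rose in R554Q by 0.41 on the log2 scale with a standard error of 0.10 (edgeR, adjusted p = 0.0173), a call that leaving out R554Q replicate 1 or wild-type replicate 1 or 2 ended (adjusted p = 0.0509 to 0.0934), and was lower in D29H than in R554Q by -0.77 (edgeR, adjusted p = 4.23e-05). Fabp7, a brain fatty acid binding protein gene 1394 kb from Gja1 on the other side, was lower in the labelled knockout than in wild type, with means of 0.480 and 2.08 CPM (edgeR, adjusted p = 0.000852). Near Gjc1, the WNT receptor gene Fzd2, at 192 kb, was higher in the labelled knockout than in wild type by 0.58 (edgeR, adjusted p = 0.000492), and the mitotic kinesin gene Kif18b, at 85.8 kb, by 0.71 (edgeR, adjusted p = 1.81e-05). Kif18b was also higher in D29H than in R554Q, by 0.63 (edgeR, adjusted p = 6.36e-05). Its means were 39.3 CPM in the labelled knockout, 42.3 in D29H, 24.1 in wild type and 27.3 in R554Q, and those of Gjc1 had the same split between the Nrf2 and the Keap1 libraries.

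Ska3 and Prr11, which act in mitosis, and Mms22l, which acts at stalled replication forks, were the genes closest to Gjc1 in level over the libraries. Since the genes named here were chosen for their likeness to a member in the same libraries, their levels are given with no test. Ska3 had means of 19.8 CPM in the labelled knockout, 16.9 in D29H, 12.9 in wild type and 12.4 in R554Q. Among the genes closest to Gjb2, Trip13 had means of 43.1 CPM in the labelled knockout, 35.5 in D29H, 31.3 in wild type and 24.0 in R554Q. Fstl1, the gene closest to Gja1 and coding for a secreted glycoprotein, had means of 924 CPM in the labelled knockout, 714 in D29H, 876 in wild type and 764 in R554Q.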
